A study of Homo sapiens with 5 samples.

Results

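The Notch pathway was described through peaks of 3 ChIP-seq libraries that lay in 10 genomic windows around its receptors NOTCH1, NOTCH2 and NOTCH3, its ligands JAG1, JAG2 and DLL1, its target genes HES1, HEY1 and HEYL, and MEGF10. A peak was a member when it overlapped a window by at least 1 bp, whatever its height. Such a peak was counted whole, also where it ran past the window's edge. The windows, in hg19, covered 1590 kb and held 270 of the 100703 peaks of the series. These were 100 of 46408 regions of histone H3 acetylated at lysine 27 (H3K27ac) in RH18, 142 of 43159 H3K27ac regions in RD, and 28 of 11136 peaks of the transcription factor MYF5 in RH18.

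RH18 and RD are established lines, both labelled fusion-negative rhabdomyosarcoma, a muscle-like tumour of soft tissue. Both were grown in DMEM with serum and antibiotics, and the labels name no treatment before formaldehyde fixation. One H3K27ac antibody served both lines, and MYF5 was captured with the C-20 antibody. The labels list H3K27ac and MYF5 immunoprecipitations with input DNA in RH18, and H3K27ac with input DNA in RD; the inputs had no peak list here, and MYF5 in RD was not analysed here. Each group was 1 library, so there is no replicate error, no test between the lines was made, and every interval covers counting error only. Each line is also a single tumour-derived line, so a difference between them includes any difference between the libraries.

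Notch receptors are cell surface proteins that are cut when a ligand of the Jagged or Delta-like family on a neighbouring cell binds them. The freed intracellular part joins the DNA-binding protein RBPJ in the nucleus and switches on repressors of the HES and HEY families. In skeletal muscle the pathway is known to keep satellite cells, the stem cells of muscle, from differentiating, against the action of basic helix-loop-helix factors such as MYF5. MEGF10 is a surface receptor of satellite cells that has been linked to Notch signalling. H3K27ac marks active promoters and enhancers.

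Promoter sequences are shown for 4 members, because RBPJ and MYF5 read short motifs that can be seen in them. The sequences are the 250 bases before the annotated start on the gene's strand, from RefSeq in GRCh38.p14, a build other than that of the peaks, so no peak was placed on them. Of the 10 members, 8 had a usable promoter entry. In HES1 and HEYL capitals mark TGGGAA, the core letters of RBPJ sites, or its reverse complement TTCCCA. In JAG2 and MEGF10 capitals mark CANNTG, the E-box letters of basic helix-loop-helix factors.
HES1 (chr3:194135898-194136147, plus strand): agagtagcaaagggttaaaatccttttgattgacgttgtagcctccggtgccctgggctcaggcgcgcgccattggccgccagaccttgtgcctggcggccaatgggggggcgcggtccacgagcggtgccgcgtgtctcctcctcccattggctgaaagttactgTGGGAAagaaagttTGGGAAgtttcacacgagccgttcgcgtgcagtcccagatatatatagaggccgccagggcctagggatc
HEYL (chr1:39639644-39639893, minus strand): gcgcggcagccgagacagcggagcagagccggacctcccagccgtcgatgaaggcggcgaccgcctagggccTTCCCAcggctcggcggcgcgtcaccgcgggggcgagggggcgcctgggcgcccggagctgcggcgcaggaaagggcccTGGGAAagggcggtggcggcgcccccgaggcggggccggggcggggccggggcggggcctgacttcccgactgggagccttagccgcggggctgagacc
JAG2 (chr14:105168777-105169026, minus strand): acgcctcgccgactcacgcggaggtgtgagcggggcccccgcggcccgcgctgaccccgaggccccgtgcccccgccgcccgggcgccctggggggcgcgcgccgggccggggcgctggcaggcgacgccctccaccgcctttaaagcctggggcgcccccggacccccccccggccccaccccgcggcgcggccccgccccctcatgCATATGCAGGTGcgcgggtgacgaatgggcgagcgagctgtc
MEGF10 (chr5:127290546-127290795, plus strand): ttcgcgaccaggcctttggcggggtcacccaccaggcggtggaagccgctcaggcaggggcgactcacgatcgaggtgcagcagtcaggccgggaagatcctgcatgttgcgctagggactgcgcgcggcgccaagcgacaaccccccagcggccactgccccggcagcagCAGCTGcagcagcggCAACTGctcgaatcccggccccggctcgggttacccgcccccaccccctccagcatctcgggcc
HES1 held TGGGAA at 2 places, starting 84 and 70 bases before the gene start. HEYL held it at 2 places as well, once on each strand, starting 178 and 99 bases before the gene start. None of the other 6 promoters held these letters, and 20.8% of 35116 RefSeq promoters of the same length did. E-box letters stood at 2 places in JAG2 and at 2 places in MEGF10, and in no other of the 8, against 61.8% of all promoters. One E-box of MEGF10 was CAGCTG, a form of CANNTG known to be bound by myogenic factors, which 14.0% of all promoters held. A further motif, CACNAG, to which HES proteins can bind, stood at 3 places in HES1, at 1 in NOTCH3 and at 1 in MEGF10, against 32.0% of all promoters. All motifs were searched on both strands. A match is a description of letters and not a binding site.

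Across the windows, H3K27ac regions numbered 100 in RH18 and 142 in RD, and covered 90.5 kb in RH18 and 67.5 kb in RD. The windows were dense in peaks: 6.29 RH18 H3K27ac regions per 100 kb against 1.53 over the chromosomes spanned by the whole list, 8.93 RD regions against 1.42, and 1.76 MYF5 peaks against 0.368. They were set around genes, so the whole-list densities, which include gene-poor stretches, are not matched to them. Heights were close to those of the lists at large, with a median fold of 14.8 in the RH18 windows against 14.0 in the whole RH18 list, and of 8.38 in the RD windows against 8.0 in the whole RD list. Of the 100 RH18 regions, 7 lay above the 90th percentile of fold enrichment in their list, and of the 142 RD regions 11 did, where 10.0% of each whole list does by construction. Fold enrichment is the authors' ratio of a peak's height to its local background. One tag added 0.832 pileup units in RH18 and 0.273 in RD, so the same number of tags gives unlike folds, and folds were read only within a list. Recovered tags are the sequenced fragments at a summit, worked back from fold and p-value.

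The lines divided the pathway unevenly. Covered length was greater in RH18 in 7 windows and greater in RD in 3, those of NOTCH2, HEY1 and MEGF10. RH18 over RD, the ratio was 7.33 at NOTCH3, 2.78 at HES1, 2.61 at DLL1, 2.38 at NOTCH1, 1.33 at HEYL, 1.25 at JAG1, 1.18 at JAG2, 0.506 at NOTCH2, 0.286 at HEY1 and 0.286 at MEGF10. Over the whole lists it was 1.54. The ratios of HEYL, JAG1 and JAG2 lay below that value although RH18 covered more bases there. Regions were called in each library on its own, and mean fold in the windows was 20.6 in RH18 and 9.57 in RD, on unlike scales.

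**Figure D1:**
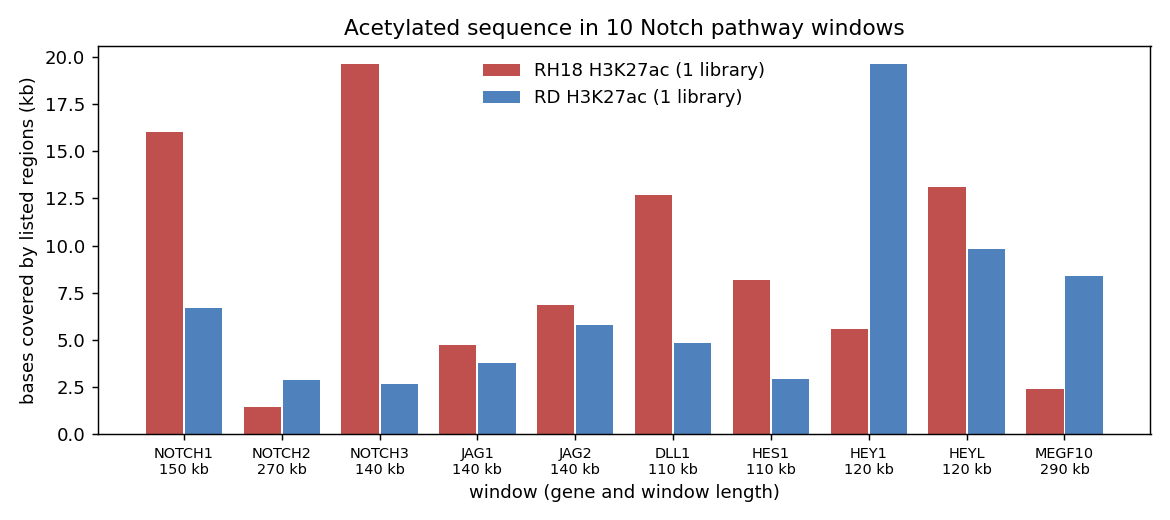
Bases covered by H3K27ac regions (kb, vertical axis) in each of the 10 windows (horizontal axis), with RH18 bars on the left and RD bars on the right, 1 library each. NOTCH3 (19.6 kb in RH18, 2.67 kb in RD) and HEY1 (5.60 kb in RH18, 19.6 kb in RD) lean to opposite lines.

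A region was called shared where it overlapped a region of the other line by at least 1 bp. Of the RH18 regions, 61 of 100 were shared (61.0%, exact Clopper-Pearson 95% interval 50.7 to 70.6%), where 45.1% of the whole RH18 list was. Of the RD regions, 79 of 142 were shared (55.6%, 47.1 to 64.0%), where 60.0% of the whole RD list was. The RD figure joined unlike windows. At HEY1 and MEGF10, a pair singled out after their values were seen, 15 of 62 RD regions were shared (24.2%, 14.2 to 36.7%). In the other 8 windows 64 of 80 were (80.0%, 69.6 to 88.1%), including all 6 at NOTCH3, all 11 at DLL1 and all 9 at HES1. Conversely all 14 RH18 regions at HEY1 and MEGF10 were shared, against 47 of 86 in the other 8 windows (54.7%, 43.5 to 65.4%). Shared RH18 regions were wider than unshared ones (median 677 against 404 bp) and of higher fold (19.4 against 8.68). Shared RD regions were wider too (415 against 267 bp), at a similar median fold (7.98 against 8.70). Their median tags were nonetheless higher, at 116 against 65 for unshared RD regions, and in RH18 at 75 against 34. Fold is a ratio to local background, so a similar fold does not mean a similar number of tags. A wider region meets the 1 bp rule more readily, so the widths are not independent of the definition of sharing. A region with no counterpart means that no peak was listed there, and the RH18 list stopped at a stricter p-value than the RD list.

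**Figure D2:**
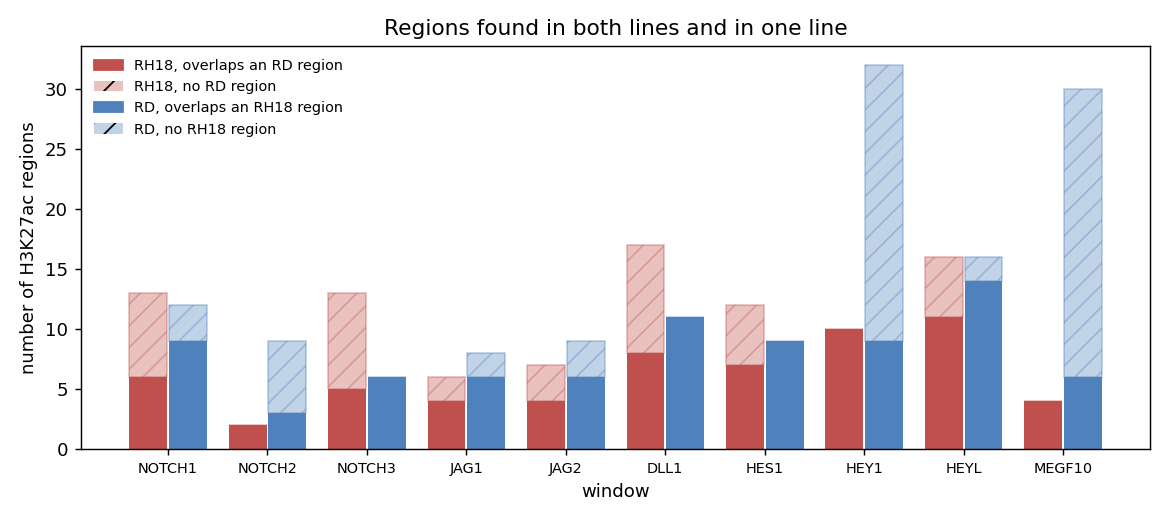
Number of H3K27ac regions (vertical axis) per window (horizontal axis), RH18 left and RD right; solid parts overlap a region of the other line by at least 1 bp and hatched parts do not. Hatched RD regions are most numerous at HEY1 (23 of 32) and MEGF10 (24 of 30), while no RH18 region of those windows is hatched.

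Of the receptors, NOTCH3 had the greatest ratio of covered length, with the least covered length of all windows in RD. The NOTCH3 window (chromosome 19, 15220000 to 15360000) held 13 regions covering 19.6 kb in RH18 and 6 regions covering 2.67 kb in RD. Folds ran from 5.39 to 114 in RH18 and from 5.57 to 11.4 in RD. A 7342 bp region in RH18 (15357888 to 15365229, fold 114, 316 recovered tags) ranked 32 of 46408 by fold, and overlapped RD acetylation only past the window's edge. It lies on the side on which RefSeq lists EPHX3 as the neighbour, crosses the edge of the window, and has its summit outside. With regions assigned by summit, NOTCH3 had 12.2 kb in RH18 and 2.67 kb in RD, a ratio of 4.58 in place of 7.33, and its RH18 length was then under the 16.0 kb of NOTCH1. Both lines shared a block at 15308611 to 15311689 in RH18 (3079 bp, fold 29.1), in which RD had 3 separate regions, the highest (15308685 to 15309260) at fold 11.4 with 124 tags. Another shared region stood at 15333094 to 15334181 in RH18 (fold 37.1, 217 tags), against 15333283 to 15334110 in RD (fold 11.3, 116 tags). In between, RH18 alone had regions of 1820 bp (15320823 to 15322642, fold 13.8) and 1311 bp (15323803 to 15325113, fold 15.1), 9196 and 8170 bp from the nearest RD region.

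NOTCH1 had nearly as many regions in each line but wider ones in RH18. Its window (chromosome 9, 139340000 to 139490000) held 13 regions with a median width of 1030 bp in RH18 and 12 with a median width of 287.5 bp in RD. The highest RH18 region (139419511 to 139422820, 3310 bp, fold 43.5, 120 tags) was matched in RD by 3 regions, of fold 8.32 at most and up to 1510 bp wide. RH18 alone had 5 regions between 139443996 and 139467694, the highest being 2847 bp wide (139464848 to 139467694, fold 34.7, 124 tags). The nearest RD region to that one lay 15269 bp away. The highest RD region (139377981 to 139378269, fold 11.3, 244 tags) was shared. Local background, recovered from the authors' fold and p-value and divided by the lowest of the list, was at a median of 10.0 under RD regions here and 1.52 under RH18 regions. All 12 RD regions had a background of 4 times the lowest or more, against 31.9% of the RD list, and none of the 13 in RH18 did, against 10.1% of the RH18 list. The part of this background in the RD widths and folds at NOTCH1 was not tested.

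NOTCH2 had few RH18 regions, at 0.741 per 100 kb against 1.53 over the whole list, and the lowest RD density of the 10 windows, at 3.33 against 1.42. The window (chromosome 1, 120400000 to 120670000) held 2 regions in RH18, both shared, and 9 in RD, of which 3 were shared. RH18 had 35 tags at the first (120557776 to 120558092, fold 13.0) and 144 at the second (120611201 to 120612347, fold 15.1). In RD the first was matched by a region of fold 21.1 (120557816 to 120558082, 123 tags, rank 2086 of 43159). The second was matched in RD by 2 regions of low fold, 3.01 and 3.56, over a background 23.5 and 20.4 times the lowest of the list; under the RH18 region it was 5.31 times. RD alone had regions at 120402406 to 120403131 (fold 10.4, 59 tags) and at 120529515 to 120529724 (fold 9.77, 55 tags), 146374 and 28052 bp from RH18 acetylation. The ratio of covered length at NOTCH2, 0.506, was 0.149 without regions of raised background and 0.900 for peaks of −log10 q of at least 10. With the 20000 regions of most tags in each list it was 1.11, the only ratio to cross 1. Over the whole lists the ratio was 2.14, 1.85 and 1.56 at these settings, in that order. At each of them NOTCH2 stayed below the lists.

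Of the ligands, DLL1 had the most regions per length in RH18 of all 10 windows. DLL1 encodes a Delta-like ligand. Its window (chromosome 6, 170540000 to 170650000) held 17 regions covering 12.7 kb in RH18 and 11 covering 4.84 kb in RD, or 15.5 per 100 kb in RH18 and 10.0 in RD. The ratio of covered length, 2.61, was 4.36 with the 20000 regions of most tags, against 1.56 over the whole lists at that setting. Every RD region overlapped RH18 acetylation. The highest RH18 region (170578386 to 170579109, fold 54.0, 157 tags) corresponded to an RD region of fold 7.75 with 110 tags. A second one (170595246 to 170596992, fold 44.4, 156 tags) was matched by 2 RD regions, of fold 9.23 with 106 tags and of fold 6.48 with 82 tags. The highest RD region (170574920 to 170575595, fold 11.1, 84 tags) overlapped an RH18 region of fold 23.9 with 72 tags. Regions of RH18 alone included a 1573 bp one (170540877 to 170542449, 45 tags), 10853 bp from RD acetylation. RefSeq lists FAM120B directly beside DLL1, and here, as in the other windows, a peak cannot be assigned to the member or to a neighbouring gene.

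At the Jagged ligands covered length was slightly greater in RH18, by ratios that depended on which regions were counted. The JAG1 window (chromosome 20, 10570000 to 10710000) held 6 regions covering 4.71 kb in RH18 and 8 covering 3.77 kb in RD. A narrow shared region was the highest in both lists, at 10585066 to 10585483 in RH18 (fold 51.4, 142 tags) and 10584955 to 10585421 in RD (fold 13.4, 77 tags). A second shared block ran from 10652182 to 10655844 in RH18 (2 regions, the wider at 1879 bp and fold 15.5, the higher at fold 41.1) and from 10651398 to 10655469 in RD (5 regions, the widest at 1347 bp and fold 7.14, the highest at fold 9.60). RH18 alone had one distant region (10600567 to 10600810, fold 10.5), 15146 bp from RD acetylation. The ratio of covered length, 1.25, was 2.87 without regions of raised background and 2.05 with the 20000 regions of most tags. The whole lists had 2.14 and 1.56 at these settings. JAG1 was thus above the lists there, but under their 1.54 when all regions were counted. For peaks of −log10 q of at least 10 it was also under them, at 1.52 against 1.85.

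The JAG2 window (chromosome 14, 105550000 to 105690000) held 7 regions covering 6.87 kb in RH18 and 9 covering 5.82 kb in RD. Most of the length lay in 2 shared blocks. The first was 2551 bp wide in RH18 (105642038 to 105644588, fold 33.7, 102 tags), against a 1907 bp region in RD (105642637 to 105644543, fold 11.7, 253 tags) and a smaller one beside it. The second was 2897 bp wide in RH18 (105678517 to 105681413, fold 24.8, 118 tags), and 778 and 1149 bp wide in RD, at fold 9.17 and 12.0. Of the 9 RD regions, 7 had a raised background, against 31.9% of the RD list. None of the 7 in RH18 did, where 10.1% of the RH18 list did. Without the regions of raised background the ratio at JAG2 was 4.96 in place of 1.18, against 2.14 in place of 1.54 over the whole lists. At the other settings JAG2 stayed below the lists. It was 1.28 against 1.85 for peaks of −log10 q of at least 10. With the 20000 regions of most tags it was 1.05 against 1.56.

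Of the target windows, HES1 and HEY1 leaned to opposite lines, while HEYL had a ratio of 1.33, nearer the 1.54 of the whole lists. HES1, a repressor of neuronal and muscle differentiation genes, had the greater covered length in RH18. Its window (chromosome 3, 193800000 to 193910000) held 12 regions covering 8.16 kb in RH18, against 9 regions covering 2.94 kb in RD. The ratio, 2.78, was 5.65 for peaks of −log10 q of at least 10 and 5.38 with the 20000 regions of most tags. Over the whole lists it was 1.85 and 1.56 at these settings. All RD regions were shared. In the stretch from 193847273 to 193860040 RH18 had 8 regions, of which 5 were shared. The highest of them, at 193859458 to 193860040, had fold 42.1 and 116 tags in RH18. Its counterpart in RD (193859543 to 193860081) had fold 11.8 and 126 tags and was the highest RD region of the window as well. RH18 alone had the 1221 bp region at 193800711 to 193801931 (fold 38.3, 137 tags), 5301 bp from RD acetylation. It also had 3 smaller regions between 193847273 and 193848882 without an RD counterpart, of fold 8.59 to 18.5. The widest RD region (193807232 to 193807824, 593 bp, fold 7.41, 42 tags) overlapped an RH18 region of fold 29.5 with 81 tags.

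HEY1, a target of Notch in many tissues, stood out in RD. Its window (chromosome 8, 80620000 to 80740000) held 10 regions covering 5.60 kb in RH18 and 32 covering 19.6 kb in RD, which is 8.33 per 100 kb in RH18 and 26.7 in RD. Folds ran from 4.93 to 44.4 in RH18 and from 5.01 to 40.6 in RD. All but 2 of the RD regions fell into 3 stretches with inner gaps of at most 5 kb, from 80669578 to 80682616 (11 regions), from 80706493 to 80714611 (11 regions) and from 80728025 to 80742229 (8 regions). The RH18 regions lay within the same 3 stretches. The highest and widest of them (80680626 to 80682304, 1679 bp, fold 44.4, 136 tags) was matched in RD by 2 regions, of fold 14.1 with 151 tags and of fold 14.6 with 157 tags. In RD a region at 80729895 to 80730900 had fold 40.6 with 240 tags and ranked 31 of 43159. A 4129 bp region at 80738101 to 80742229 had fold 33.6 with 243 tags and ranked 182. Both lay in another stretch than the highest RH18 region. Over the RD region of fold 40.6, RH18 had 2 regions, of fold 12.3 with 46 tags and of fold 19.4 with 69 tags, and over that of fold 33.6 it had 2 regions, of fold 11.6 with 40 tags and of fold 40.3 with 144 tags. In the middle stretch RH18 had 2 weak regions, of fold 4.93 and 7.62, while RD reached fold 26.9 (80708995 to 80709486, 167 tags, rank 730). In all, 5 of the RD regions lay above the 90th percentile of fold. Median background under the RD regions was 1.46 times the lowest, against 2.34 over the whole RD list. The ratio of covered length was 0.305 for peaks of −log10 q of at least 10, 0.314 without peaks of raised background and 0.293 for the 20000 regions with most tags. Over the whole lists it was 1.85, 2.14 and 1.56, in that order.

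HEYL held a few regions of high rank in both lines, within the same stretch. This HEY relative is known in mouse satellite cells as an effector of Notch. Its window (chromosome 1, 40040000 to 40160000) held 16 regions in RH18 and 16 in RD, covering 13.1 kb in RH18 and 9.83 kb in RD, with 11 of the RH18 and 14 of the RD regions shared. In each line 13 regions formed a stretch of about the same extent, 40098201 to 40118956 in RH18 (20.8 kb) and 40098070 to 40118309 in RD (20.2 kb). Within it lay the highest region of the 10 windows in RH18, 4395 bp wide (40109425 to 40113819, fold 117, 326 tags), which ranked 23 of 46408. In RD that place was taken by neighbouring regions of 1373 bp (40110592 to 40111964, fold 22.5, 188 tags) and 2334 bp (40112157 to 40114490, fold 29.3, 300 tags, rank 452 of 43159). The gap between these RD regions is where the MYF5 summit described below lay. In the genome order of RefSeq, HEYL stands between PABPC4 and NT5C1A.

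MEGF10 was acetylated at many small sites in RD and at few in RH18. The window (chromosome 5, 126570000 to 126860000) held 4 regions covering 2.40 kb in RH18, all shared, and 30 covering 8.39 kb in RD, of which 24 had no RH18 counterpart. The highest in RH18 (126625925 to 126626958, fold 24.7, 88 tags) was matched in RD by 2 regions, of fold 19.8 with 214 tags and of fold 20.5 with 222 tags. The highest in RD (126647633 to 126648113, fold 28.6, 168 tags, rank 533 of 43159) was matched in RH18 by a region of fold 18.4 with 50 tags (126647738 to 126648053). The other 2 RH18 regions, at 126852954 to 126853201 (fold 9.76, 26 tags) and 126853320 to 126854123 (fold 16.8, 100 tags), faced 3 RD regions of fold 4.11 to 5.36. RH18 had no region between 126648053 and 126852954. In that interval RD had 20 regions, many of them close together, as at 126690732 to 126693320 (4 regions), 126701223 to 126707154 (4 regions) and 126751829 to 126753535 (4 regions). RD regions of the window were narrow (median 220.5 bp) and rested on few tags (median 55), against 358 bp and 85 tags over the RD list. With the 20000 regions of most tags in each list, the ratio of covered length was 0.819 in place of 0.286, and for peaks of −log10 q of at least 10 it was 0.430. Over the whole lists it was 1.56 and 1.85 at these settings.

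**Figure D3:**
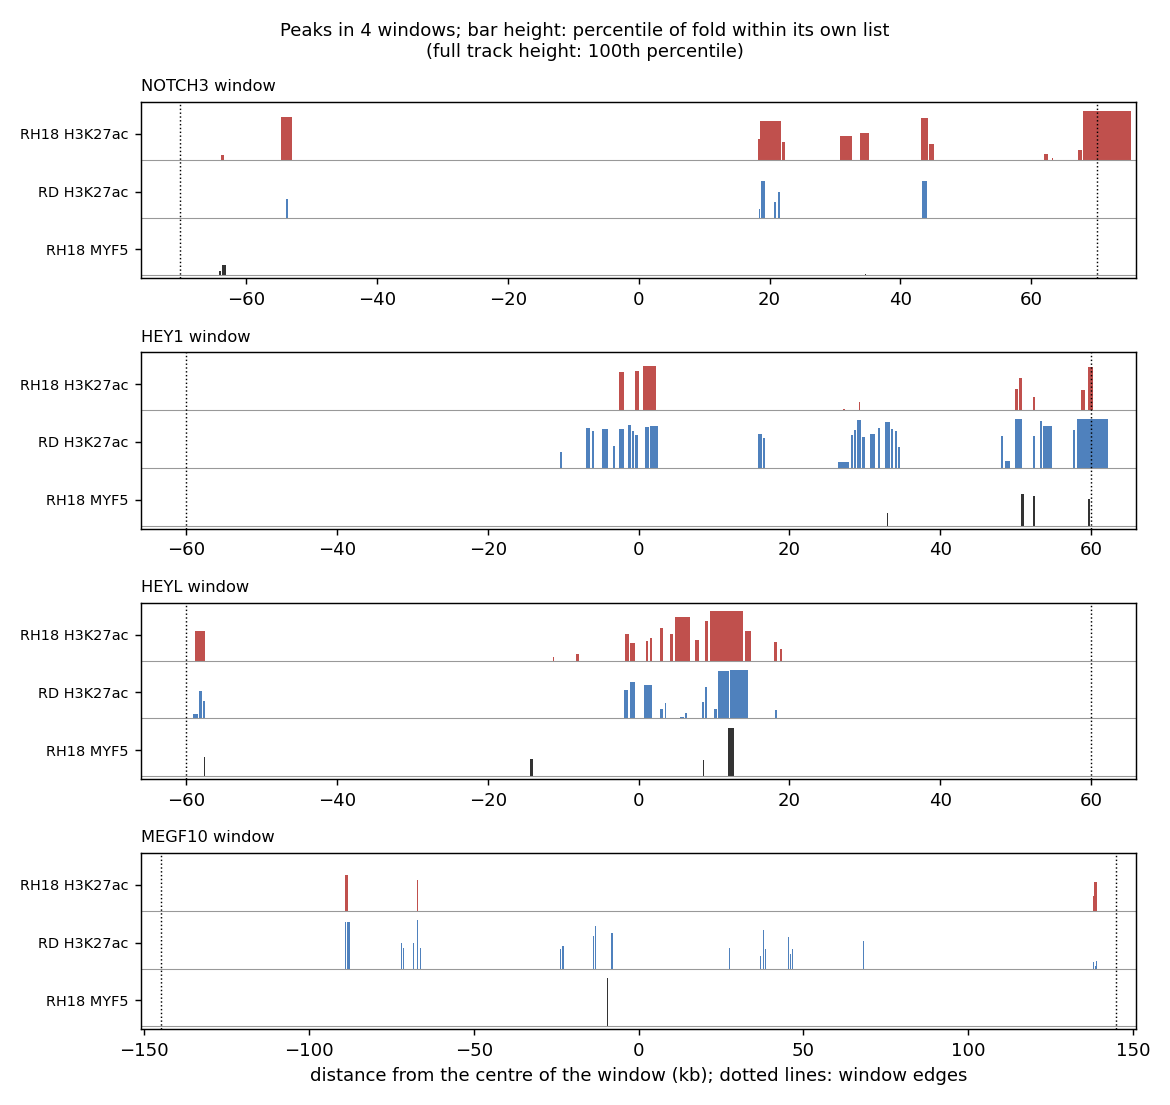
Peaks of RH18 H3K27ac, RD H3K27ac and RH18 MYF5 (3 tracks per panel) in the windows of NOTCH3, HEY1, HEYL and MEGF10, against distance from the window's centre (kb), with height as the percentile of fold within a list. RD fills HEY1 (32 regions, 10 in RH18) and MEGF10 (30 regions, 4 in RH18), both lines fill the same stretch of HEYL, and the widest RH18 region of NOTCH3 crosses the window's edge.

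MYF5 peaks stood in all 10 windows, from 1 at NOTCH1 and MEGF10 to 4 at DLL1, HEY1 and HEYL. Their folds ran from 5.35 to 45.6 with a median of 11.6, against 11.2 over the whole MYF5 list, and their tags had a median of 43.5, against 42. Of the 28 summits, 19 lay inside RH18 H3K27ac (67.9%, 47.6 to 84.1%), where 55.2% of all summits did. Inside RD H3K27ac lay 10 (35.7%, 18.6 to 55.9%), where 39.9% did. Both whole-list shares are within these intervals. In 7 cases the summit lay in acetylation of both lines (whole list 33.5%). In 12 it lay in that of RH18 alone (42.9%, 24.5 to 62.8%, whole list 21.7%), and in 3 in that of RD alone (10.7%, 2.27 to 28.2%, whole list 6.38%). The last 6 lay outside both (whole list 38.4%). Of the 100 RH18 regions 19 held a MYF5 summit, against 12.0% of the list, and of the 142 RD regions 10 did, against 9.71%.

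**Figure D4:**
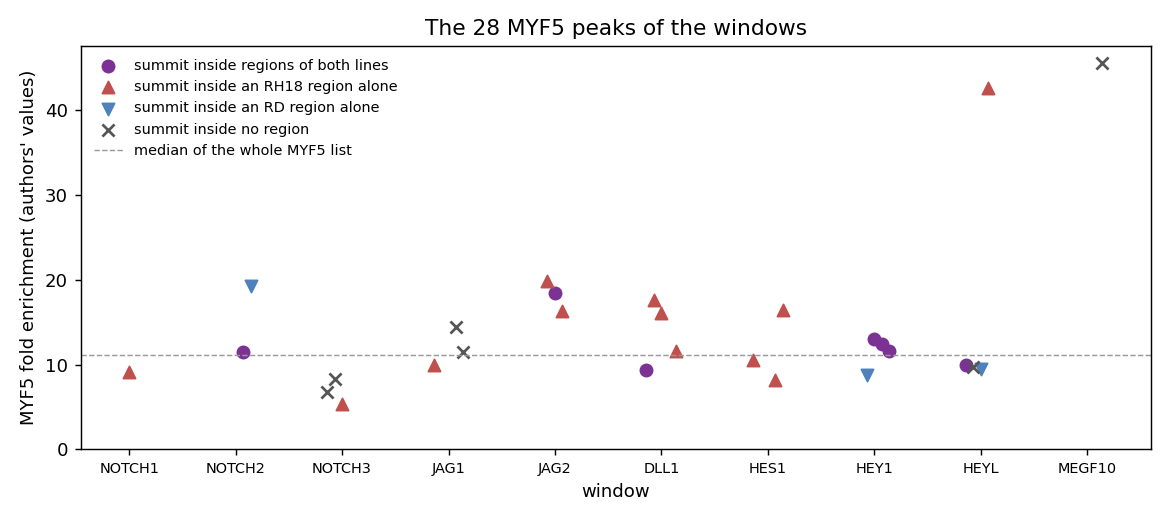
Fold enrichment of the 28 MYF5 peaks (vertical axis, authors' values) by window (horizontal axis), with symbols for the H3K27ac regions in which the summit lay and the median of the whole MYF5 list (11.2) as a dashed line. The peaks at HEYL (42.6) and MEGF10 (45.6) stand above all others, which reach 19.9.

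A pair of MYF5 peaks stood apart in height, at HEYL and MEGF10. The HEYL peak (chromosome 1, 40111893 to 40112660, fold 42.6, 193 tags) ranked 131 of 11136 and its summit lay inside the RH18 region of fold 117. In RD the same summit fell 59 bp outside acetylation, in the gap between the regions of fold 22.5 and 29.3. The MEGF10 peak (chromosome 5, 126705508 to 126705835, fold 45.6, 139 tags) was higher still, at rank 83. It was the only MYF5 peak of its window, and the nearest RH18 H3K27ac region lay 57625 bp away. In RD, where MYF5 was not analysed here, it fell within the stretch 126701223 to 126707154, 1017 bp from a region of fold 10.9. No other MYF5 peak of the windows lay above the 90th percentile of fold, and the next was at fold 19.9.

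In the ligand windows the MYF5 summits lay in RH18 acetylation at JAG2 and DLL1, and mostly outside it at JAG1. Over the whole MYF5 list 55.2% of summits lay in RH18 acetylation. With 3 or 4 summits per window, a departure from that share was not tested. At JAG2 all 3 lay inside, with fold 19.9 and 18.5 in the first block (105642487 to 105642773 and 105643517 to 105643796) and 16.3 in the second (105679310 to 105679637), and 60 to 65 tags. At DLL1 all 4 did, of which the highest, at 170579153 to 170579432, had fold 17.6 and 76 tags. The DLL1 peaks at 170552981 to 170553389 (fold 11.6, 39 tags) and 170575301 to 170575472 (fold 9.33, 29 tags) were lower, the last of them also inside RD acetylation. A DLL1 peak at 170595648 to 170596099 (fold 16.1, 72 tags) sat in the RH18 region of fold 44.4 and between its 2 RD counterparts. JAG1 differed, with 1 peak inside RH18 acetylation (10654450 to 10654697, fold 9.98) and 2 far from both lines. These last, at 10629300 to 10629595 (fold 14.4, 43 tags) and 10630505 to 10630748 (fold 11.5, 34 tags), lay 22722 and 21571 bp from RH18 regions, and 21938 and 20787 bp from RD regions.

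At the targets, HES1 had 3 MYF5 peaks inside RH18 regions and none inside RD regions. They stood at 193800998 to 193801321 (fold 8.23, 36 tags), 193815925 to 193816140 (fold 16.4, 49 tags) and 193848086 to 193848268 (fold 10.6, 35 tags). The peaks at the lowest and highest positions fell on acetylation of RH18 alone, 6048 and 3378 bp from RD regions. HEY1 had 4 peaks, all inside RD regions and 3 of them inside RH18 regions. The peak at 80730709 to 80731087 (fold 13.0, 48 tags) lay in the RD region of fold 40.6, and that at 80739607 to 80739937 (fold 11.6, 39 tags) in the RD region of fold 33.6. The peak at 80712889 to 80713063 (fold 8.81, 28 tags) lay in RD acetylation of fold 18.6 and 3566 bp from RH18 acetylation. The remaining one, at 80732362 to 80732582 (fold 12.5, 51 tags), lay in an RH18 region of fold 9.26 with 35 tags and an RD region of fold 9.77 with 68 tags. At HEYL the other 3 peaks had folds of 9.55 to 9.95, of which that at 40042293 to 40042523 (59 tags) lay in acetylation of both lines and that at 40108492 to 40108697 (28 tags) in that of RD alone.

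The receptor windows held 6 MYF5 peaks, of fold 19.3 at most. At NOTCH1 the single peak (139421247 to 139421420, fold 9.11, 29 tags) lay in the RH18 region of fold 43.5. At NOTCH2 a peak at 120557769 to 120558002 (fold 11.5, 34 tags) lay in the shared region of both lines. A higher one at 120601992 to 120602239 (fold 19.3, 58 tags) lay in RD acetylation of fold 7.44, and 9111 bp from RH18 acetylation. NOTCH3 had the lowest median of all windows, with peaks at 15225912 to 15226169 (fold 6.72, 24 tags), 15226372 to 15227048 (fold 8.28, 31 tags) and 15324577 to 15324787 (fold 5.35, 44 tags). The last lay inside the RH18 region of fold 15.1. Its background was 4.47 times the lowest of the list, and it was the only 1 of the 28 at 4 times or more, against 4.91% of the MYF5 list.

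Some MYF5 summits sat between RD regions. Of the 28, 6 were flanked by RD acetylation at most 500 bp away to left and right without lying in it, where 10.6% of all MYF5 summits did, and none was so flanked by RH18 acetylation, where 4.81% did. The 6 were 1 at NOTCH1, 2 at JAG2, 2 at DLL1 and 1 at HEYL. Of the 12 summits inside RH18 regions alone, 9 were within 200 bp of an RD region (75.0%, 42.8 to 94.5%), where 44.2% of all summits inside RH18 regions alone were. Counting summits within 500 bp gave 22 of 28 in RH18 and 19 of 28 in RD, against 72.1 and 62.9% of all summits. The 4 summits over 500 bp from both lines, where 19.7% of the list was, were the 2 at JAG1, 1 at HEYL (40085601 to 40086056, fold 9.71) and the one at MEGF10.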

How the data were processed

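Peak lists of 3 ChIP-seq libraries were analysed, 1 list per library. Per the submitters' processing notes, the tools were BWA 0.7.10 and MACS2 2.1.0 and the build was hg19. No role, control or threshold is given there. The deposited columns used are fold enrichment (a ratio over local background), the summit position, and −log10 of both the p-value and the q-value. A score, also deposited, was a multiple of the −log10 p-value and was not used. All are the authors' values. Sequencing totals are not given in the sources.

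Windows were read from the rule for the 10 genes. Tags and background at each summit were recovered from fold and p-value with the formulas of MACS2, fold as pileup plus 1 over background plus 1, and p as a Poisson tail. A tag was worth 0.832 pileup units in RH18 H3K27ac, 0.273 in RD H3K27ac and 0.658 in MYF5. Within 0.1 tag, recovered tags were whole for 100.0% of peaks in each list, after choosing among several solutions for 7.85, 45.5 and 18.7% of peaks, in that order. The step was tested on data simulated with the same formulas and tag worth. Such a test checks the computation and cannot show that tags recovered from the lists are right. Depth sets the precision: whole-list medians were 57, 85 and 42 tags per summit. Lists ended at a −log10 p-value of 7.09, 5.00 and 9.09.

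With 1 library per group no test was run. Shares carry exact Clopper-Pearson 95% intervals. Members, lists and windows were chosen with earlier results of these data known. All 10 members were named. For each, the rule named the peak of highest fold per list, as well as MYF5 peaks above the 90th percentile, the widest regions, and all peaks of members with 5 or fewer; others named were chosen after their values were seen. No genome or annotation of hg19 was used, so E-boxes at MYF5 summits, other Notch pathway genes, peak-to-gene distances and marker genes of the lines were not analysed here. Promoters came from RefSeq, GRCh38.p14, with strand checked against a microRNA inside the NOTCH1 entry. The software was Python 3.11.15 with scipy 1.17.1, pandas 2.3.3, matplotlib 3.10.9 and numpy 2.4.6. Alternatives are described with their effects in the closing section.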

Additional observations from a re-analysis of the deposited data

How the results depend on the processing

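Of 85 alternatives, 54 kept their value within the interval or within 1.5 times, 30 moved and 1 turned direction; 37 of them were chosen after seeing the data. No paired analysis was possible because each group held 1 library. Overlap of 50% of both regions gave shared shares of 30.0% in RH18 and 21.1% in RD. Peaks with background under 4 times the lowest gave 43.5 and 42.4%. Whole-list shares are given here only for the 1 bp overlap of all regions (45.1 and 60.0%). Whether the whole lists moved likewise at these settings is therefore not shown. Leaving out the HEY1 and MEGF10 windows gave 80.0% in RD. Summits within 500 bp put 67.9% of MYF5 peaks at RD regions. Windows 20 kb narrower on both sides held 18 MYF5 peaks in place of 28, so 10 lay near an edge. The ratio of covered length over all windows, 1.34, was 3.93 with fold times width (3.83 over the whole lists, where folds are not on one scale) and 2.09 without HEY1 and MEGF10. At NOTCH2 it was 1.11 in place of 0.506 with the 20000 regions of most tags, and so turned direction by crossing 1. It stayed under the 1.56 of the whole lists at that setting. By window, the others that moved kept their direction; at NOTCH1 no RD region was left without raised background, so no value could be given. Widths and folds set the change with fold times width by construction; the cause of the other changes was not tested. The E-box alternative was not run, since no genome of hg19 was used. Lists ending at different thresholds and unknown library depth limit what an unshared region shows.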
